A study of Mus musculus with 23 samples.

Results

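The 10 genes of the negative feedback on extracellular signal-regulated kinase (ERK) signalling and of its E26 transformation-specific (ETS) targets were followed across 7 groups of mouse sciatic nerves (SNs). They were taken by symbol as Dusp4, Dusp5, Dusp6, Dusp15, Spry1, Spry2, Spry4, Spred1, Etv4 and Etv5, and all 10 were matched to a gene among the 43068 genes listed for the crush libraries and the 22880 listed for the mutant libraries. Total RNA of whole SNs had been sequenced in 23 libraries. In the crush experiment, nerves of wild-type C57bl6 male mice of 2 months were taken 3 days post crush (3 dpc, n = 4), from the uninjured contralateral side of crushed mice at the same time (n = 4), or from uncrushed surgery controls (n = 3). In the inducible knockout (iKO) experiment, C57bl6 mice of the genotype P0-CreERT2 -/+ Dicer1 flox/flox (Dicer iKO, n = 3) or P0-CreERT2 -/+ Dgcr8 flox/flox (Dgcr8 iKO, n = 3) were each compared with Cre-negative controls, P0-CreERT2 -/- with the same floxed allele (n = 3 each). Mutants and controls alike had received tamoxifen as adults, and nerves were taken 3 months post tamoxifen (3 mpT). The Cre acts in myelinating Schwann cells (SCs), the other cells of the nerve keep their alleles, and the mutants had been preselected for affected morphology. Per the methods, tamoxifen was given at 8 to 10 weeks of age, and the sex of the iKO mice was not restricted.

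ERK, the last kinase of the Ras-Raf-MEK cascade, is switched on by receptor tyrosine kinases and is a known driver of SC dedifferentiation after nerve injury. Cells answer ERK activity by transcribing their own brakes. Dusp4 and Dusp5 encode phosphatases that inactivate ERK in the nucleus and Dusp6 encodes one that does so in the cytoplasm, while Sprouty (Spry) and Spred proteins restrain the pathway upstream, at the level of receptors, Ras and Raf. Etv4 and Etv5 encode ETS transcription factors of the PEA3 subfamily, whose transcription rises with ERK activity. Dusp15 differs from the others: it encodes a small atypical dual-specificity phosphatase without an ERK-docking domain, known from myelinating oligodendrocytes as a target of Sox10.

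The window upstream of the transcription start is shown for Dusp5, the member that rose most in the data, and for Dusp6, the classical feedback phosphatase of ERK. RefSeq windows of 300 bases (250 before and 50 after the start, build GRCm38.p6) matched 6 of the 10 members, namely Dusp5, Dusp6, Spry1, Spry2, Spred1 and, with 2 windows, Etv5. The part before the annotated start is printed 5′ to 3′ on the + strand, chr19:53528895-53529108 for Dusp5 and chr10:99262981-99263230 for Dusp6. Capitals mark letters that match an ETS core (AGGAAG, here as its reverse complement CTTCCT) and, in Dusp5 only of these 2, a pair of adjacent CArG boxes, the sites of serum response factor.
Dusp5: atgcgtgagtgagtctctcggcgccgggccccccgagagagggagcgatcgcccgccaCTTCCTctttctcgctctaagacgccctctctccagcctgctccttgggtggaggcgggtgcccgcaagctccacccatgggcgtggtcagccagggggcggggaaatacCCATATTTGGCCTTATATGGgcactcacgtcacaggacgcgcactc
Dusp6: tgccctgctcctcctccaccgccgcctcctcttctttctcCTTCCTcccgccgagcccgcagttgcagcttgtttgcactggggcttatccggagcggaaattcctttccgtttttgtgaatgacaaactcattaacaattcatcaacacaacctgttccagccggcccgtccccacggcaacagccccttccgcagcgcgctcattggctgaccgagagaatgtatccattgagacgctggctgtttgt

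Both strands of the whole windows were searched for ETS letters (CCGGAA and AGGAAG), AP-1 letters (TGANTCA) and CRE letters (TGACGTCA). AGGAAG was present once in the windows of Dusp5 and Dusp6 and in 1 of the 2 windows of Etv5, against 35.4% of all 32851 promoter windows of this length. CCGGAA was present only in the window of Spry2, against 14.9% of all windows. AP-1 letters (7.81% of all windows) and CRE letters (1.79%) were in none of the members' windows. The CArG box, searched after the Dusp5 window had been seen, starts 82 and 72 bases before the RefSeq start of Dusp5, is in no other member's window, and is held by 1.63% of all windows. These matches describe letters in the windows and not binding.

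Total counts per library ranged from 6617716 to 12806066 in the crush and from 5594859 to 10143244 in the iKO experiment. Levels are given as CPM, counts scaled to library size with TMM factors over the libraries of 1 experiment. The detection limit, set at 3 counts of a library, was 0.234 to 0.453 CPM in the crush and 0.296 to 0.536 CPM in the iKO libraries, and it covers counting error only. Library kits are labelled differently for the 2 experiments, so no test was made across them. A gene was called upregulated or downregulated when it changed 2-fold or more (a log2 fold change of 1 or more in size) with a Benjamini-Hochberg adjusted p of 0.05 or less in edgeR's quasi-likelihood test, fitted across all genes. Where the nerves of groups are said not to overlap, this is a description. The share of all genes without overlap was not counted. The nerves of whole-tissue libraries hold several cell types, so that a fall in the number of cells of a type and less RNA per cell cannot be told apart.

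At 3 dpc, 6 of the 10 genes were upregulated against uncrushed nerves (Dusp4, Dusp5, Dusp6, Spry2, Spred1 and Etv5) and 1, Dusp15, was downregulated, while of all 17433 genes tested 15.3% were called higher and 21.1% lower. With the adjusted p alone, 8 of the 10 were higher, Etv4 and Spry4 in addition, and 1 was lower (33.8% and 33.4% of all genes). Against contralateral nerves, 6 were upregulated (Dusp4, Dusp5, Dusp6, Spred1, Etv4 and Etv5) and Dusp15 again was downregulated, against 14.6% called higher and 13.6% lower of 16667 genes. By the adjusted p alone 7 were higher, Spry2 in addition, and 1 lower (33.5% and 32.9% of all genes). On the log2 scale, the median change of the 10 was 1.2 against uncrushed and 1.08 against contralateral nerves, while that of all genes tested was -0.03 and -0.06. Both comparisons use the same 4 crushed nerves.

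**Figure D1:**
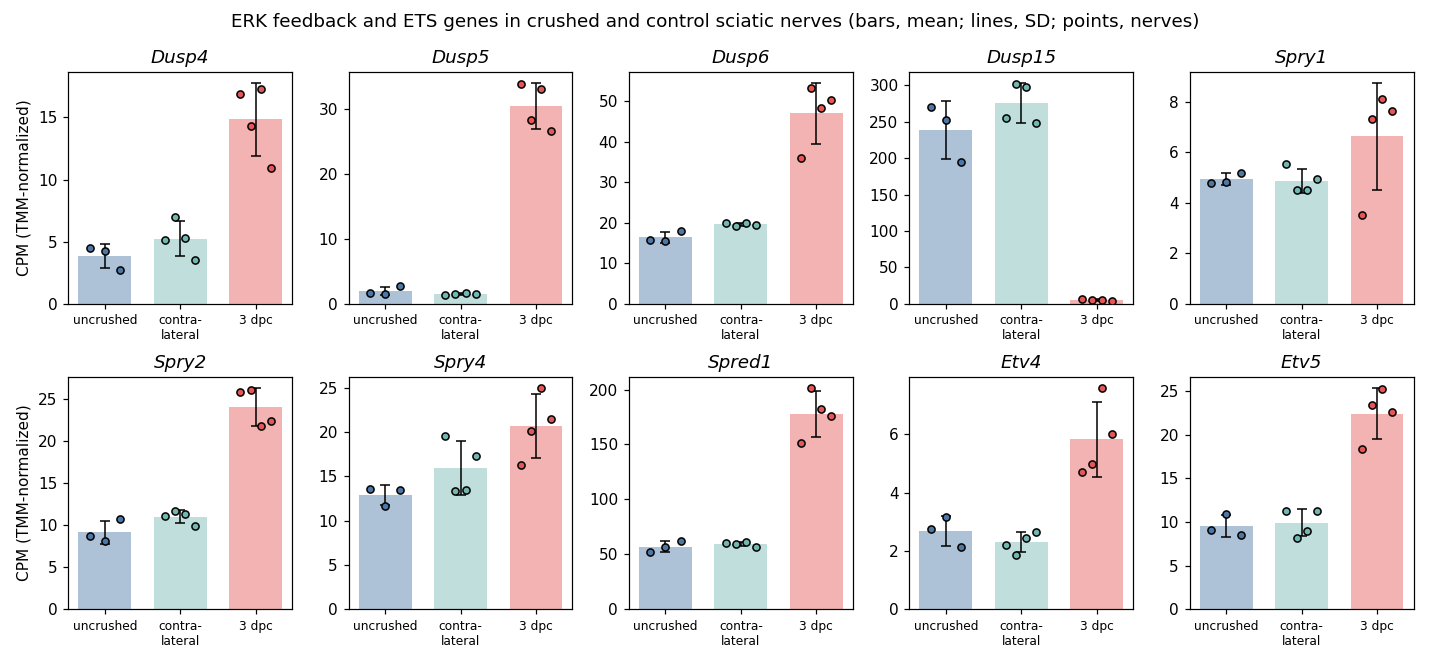
Level of each of the 10 genes in CPM (linear axis from 0) in uncrushed (n = 3), contralateral (n = 4) and crushed nerves at 3 dpc (n = 4), with bars for the mean, lines for the SD and 1 point per nerve. Dusp5 rises from a level near the axis to 26.7 to 33.9 CPM, Dusp15 drops to between 4.11 and 6.21 CPM, and the points of Spry1 overlap between the groups.

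Among the ERK phosphatases, Dusp5 (ENSMUSG00000034765, chromosome 19, 53529109 to 53542431) changed most. It was at 1.62, 1.53 and 2.75 CPM in the 3 uncrushed nerves, at 1.29, 1.48, 1.66 and 1.58 CPM in the 4 contralateral nerves, and at 33.9, 28.4, 33.2 and 26.7 CPM in the 4 crushed nerves. Every crushed nerve was far above every control nerve, and the controls rested on 13 to 19 counts each. The log2 fold change was 3.89 against uncrushed (standard error, SE, of 0.19; adjusted p = 5.52e-09) and 4.20 against contralateral nerves (SE 0.14, adjusted p = 5.64e-12). An antisense gene, AC137853.2, overlaps Dusp5, and whether the counting used strand is not given in the sources used here.

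Dusp4 (ENSMUSG00000031530, chromosome 8, 34807297 to 34819894), the second nuclear phosphatase, was at 4.53, 4.24 and 2.75 CPM in uncrushed nerves and at 5.14, 7.001, 5.29 and 3.55 CPM in contralateral nerves. In crushed nerves it was at 16.9, 14.3, 17.3 and 10.9 CPM, all above both controls. It rose by a log2 fold change of 1.79 against uncrushed (SE 0.20, adjusted p = 8.43e-06) and 1.34 against contralateral nerves (SE 0.19, adjusted p = 1.65e-05).

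Dusp6 (ENSMUSG00000019960, chromosome 10, 99263231 to 99267489), the cytoplasmic ERK phosphatase, was the steadiest of the phosphatases in control nerves, at 15.8, 15.4 and 17.9 CPM in uncrushed and 19.9, 19.2, 19.97 and 19.5 CPM in contralateral nerves. The crushed nerves were at 36.0, 53.1, 48.2 and 50.4 CPM, without overlap with the controls. Its log2 fold change was 1.41 against uncrushed (SE 0.14, adjusted p = 3.22e-06) and 1.12 against contralateral nerves (SE 0.11, adjusted p = 6.11e-07).

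The inhibitors that act upstream of ERK did not move alike. Spred1 (ENSMUSG00000027351, chromosome 2, 117121374 to 117182279), which brings the Ras inactivator neurofibromin to the membrane, was at 51.8, 56.2 and 61.8 CPM in uncrushed, 60.4, 59.4, 60.8 and 56.9 CPM in contralateral, and 151.1, 201.3, 182.7 and 175.5 CPM in crushed nerves. Each crushed nerve was over all controls, with a log2 fold change of 1.53 against uncrushed (SE 0.12, adjusted p = 2.41e-07) and 1.44 against contralateral nerves (SE 0.08, adjusted p = 1.89e-09).

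Spry2 (ENSMUSG00000022114, chromosome 14, 105891947 to 105896819) was at 8.63, 8.12 and 10.7 CPM in uncrushed, 11.1, 11.7, 11.4 and 9.85 CPM in contralateral, and 25.8, 26.1, 21.8 and 22.4 CPM in crushed nerves. The crushed nerves were above all others. The log2 fold change was 1.29 against uncrushed (SE 0.13, adjusted p = 4.02e-06) and 0.99 against contralateral nerves (SE 0.10, adjusted p = 9.45e-07), the latter just inside the 2-fold limit and so not called.

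Spry4 (ENSMUSG00000024427, chromosome 18, 38586247 to 38601415) was at 13.6, 11.6 and 13.4 CPM in uncrushed and 16.3, 20.1, 25.0 and 21.5 CPM in crushed nerves, without overlap, but contralateral nerves at 19.6, 13.4, 13.5 and 17.3 CPM overlapped the crushed ones. Its log2 fold change was 0.56 (SE 0.15, adjusted p = 0.00553) against uncrushed and 0.24 (SE 0.15, adjusted p = 0.165) against contralateral nerves. Spry1 (ENSMUSG00000037211, chromosome 3, 37639947 to 37644598) passed neither test, with 0.30 against uncrushed (SE 0.26, adjusted p = 0.319) and 0.30 against contralateral nerves (SE 0.22, adjusted p = 0.242). It was at 4.78, 4.82 and 5.19 CPM in uncrushed, 5.51, 4.51, 4.50 and 4.93 CPM in contralateral, and 7.29, 8.09 and 7.63 CPM in crushed nerves 2, 3 and 4, while crushed nerve 1 was lowest of all at 3.50 CPM. Over the edgeR and DESeq2 fits of the closing section, Spry1 ranged from 0.11 to 0.53 against uncrushed nerves (adjusted p 0.0255 to 0.727). Against contralateral nerves Spry1 ranged from 0.165 to 0.49 (adjusted p 0.0115 to 0.568) and Spry4 from 0.11 to 0.41 (adjusted p 0.0107 to 0.571). Genes of other types overlap Spry1 (Gm42922) and Spry4 (Gm27369 and Gm27804) on the opposite strand.

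Both ETS factors were higher at 3 dpc. Etv5 (ENSMUSG00000013089, chromosome 16, 22381309 to 22439719) was at 9.06, 10.9 and 8.55 CPM in uncrushed, 11.3, 8.17, 9.01 and 11.2 CPM in contralateral, and 18.4, 23.5, 25.3 and 22.7 CPM in crushed nerves, which stood apart from both controls. Its log2 fold change was 1.11 against uncrushed (SE 0.14, adjusted p = 2.27e-05) and 1.04 against contralateral nerves (SE 0.13, adjusted p = 6.16e-06). Both values lie close to the 2-fold limit. Without crushed nerve 2, crushed nerve 3 or contralateral nerve 2, the value against contralateral nerves was 0.99, 0.95 and 0.97, below that limit.

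Etv4 (ENSMUSG00000017724, chromosome 11, 101769742 to 101785371) was the scarcer of the pair, at 2.73, 3.18 and 2.14 CPM in uncrushed, 2.20, 1.87, 2.45 and 2.66 CPM in contralateral, and 4.72, 4.98, 7.59 and 6.02 CPM in crushed nerves. The crushed nerves again lay above all controls. The log2 fold change was 0.98 against uncrushed (SE 0.24, adjusted p = 0.00334), not called by its size, and 1.21 against contralateral nerves (SE 0.20, adjusted p = 0.000119). Leaving out crushed nerve 1, crushed nerve 2, uncrushed nerve 1 or uncrushed nerve 2 took the value against uncrushed nerves over the limit, to 1.04, 1.04, 1.02 and 1.13.

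Dusp15 (ENSMUSG00000042662, chromosome 2, 152940997 to 152951698) went the other way. It was at 270.2, 252.6 and 194.3 CPM in uncrushed and 255.9, 301.7, 297.5 and 248.7 CPM in contralateral nerves, and at 6.21, 4.89, 5.19 and 4.11 CPM in crushed nerves. The groups were far apart, with 41 to 71 counts left per crushed nerve against 1273 or more in each control. The log2 fold change was -5.66 (SE 0.15, adjusted p = 1.29e-10) against uncrushed and -5.89 (SE 0.13, adjusted p = 3.13e-13) against contralateral nerves, so that it was 50.7-fold and 59.2-fold lower. Only 21 of the 17433 genes tested had a lower log2 fold change against uncrushed nerves.

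**Figure D2:**
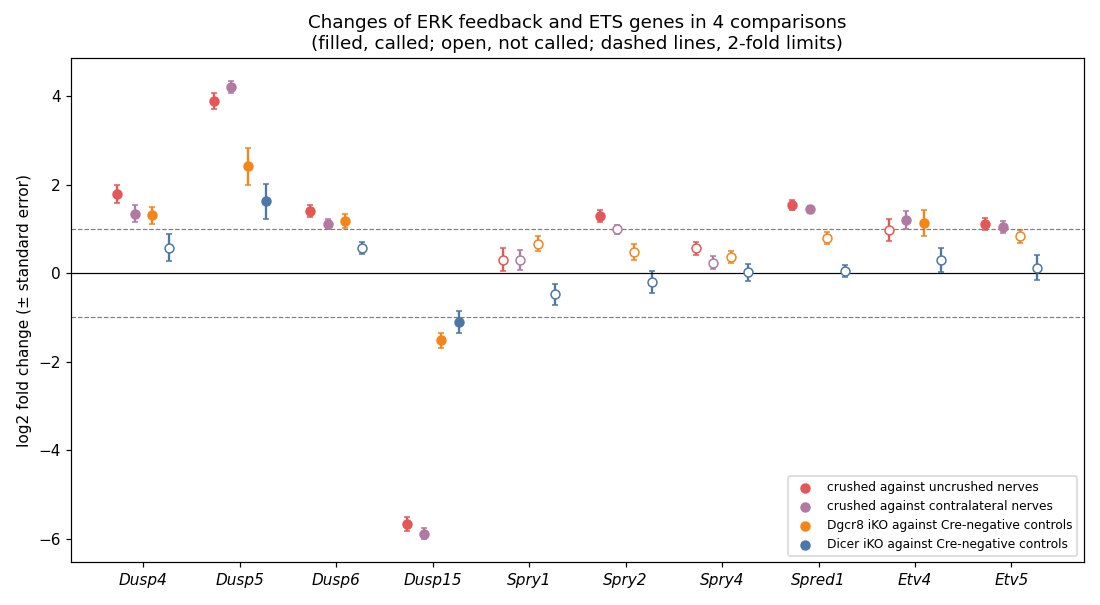
Log2 fold change of each of the 10 genes (points) with its SE (lines) in crushed against uncrushed, crushed against contralateral, Dgcr8 iKO against control and Dicer iKO against control nerves, where filled points were called. Dusp5 has the highest value and Dusp15 the lowest in each of the 4 comparisons, and most other values lie between 0 and 2.

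Mature myelin genes were lower in the same nerves as Dusp15. The list of 7 myelinating SC markers had a summed level of 37656 to 42673 CPM in uncrushed, 42773 to 56967 CPM in contralateral and 2054 to 3160 CPM in crushed nerves. Of its 7 genes, 6 were downregulated in each comparison, with median log2 fold changes of -3.91 and -4.03. Sox10, the SC lineage factor, fell less, by 0.84 on the log2 scale against uncrushed nerves (adjusted p = 6.78e-05) and by 1.29 against contralateral nerves. The 5 SC lineage markers, Sox10 among them, did not move alike. By the adjusted p alone, 3 were lower and 1 higher against uncrushed nerves, and 4 lower and 1 higher against contralateral nerves. S100b had log2 fold changes of -2.56 and -2.66, and Cdh19 of 0.72 and 0.63. The part of lost myelinating cells in the fall of Dusp15 was not tested.

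Other cell types moved with the rise of the feedback genes. All 8 macrophage markers were upregulated in both comparisons, from a summed 139.1 to 162.3 CPM in uncrushed and 105.9 to 196.6 CPM in contralateral nerves to 796.6 to 1843 CPM at 3 dpc. All 4 markers of dividing cells were upregulated as well, from 16.6 to 33.6 CPM in control nerves to 768.0 to 1157 CPM. Of the repair SC markers, 4 of 6 could be tested and all 4 were upregulated. The 4 neutrophil markers summed to 20.9 to 36.8 CPM in crushed nerves, 7.43 to 11.3 CPM in uncrushed and 4.51 to 6.56 CPM in contralateral nerves, and of the 2 that could be tested 1 was called against uncrushed and 2 against contralateral nerves. Of 5 endothelial markers, Cdh5 and Tek were upregulated in both comparisons, by 1.496 and 1.004 on the log2 scale against uncrushed nerves. The adjusted p alone gave 3 higher and 1 lower of the 5 against uncrushed nerves, and 3 higher and 2 lower against contralateral nerves. T cell markers were low throughout, with sums of 1.14 to 1.60 CPM in crushed, 2.0 to 3.82 CPM in uncrushed and 1.09 to 2.36 CPM in contralateral nerves, and Cd3d, the only one tested against uncrushed nerves, was downregulated (-1.25, adjusted p = 0.00612). Of 5 fibroblast markers, 1 was downregulated in each comparison and 3 were lower by the adjusted p alone. The same numbers held for the 4 perineurial markers. Fibroblast sums were 2676 to 3141 CPM in crushed and 3896 to 4384 CPM in uncrushed nerves. Perineurial sums were 264.8 to 313.6 CPM and 503.0 to 549.2 CPM. Of 3 mast cell markers, 2 were downregulated against contralateral nerves, and the 1 tested against uncrushed nerves was not called. Which cells carry the feedback transcripts was not tested.

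Per length, the order of the members changed with crush. On the deposited FPKM scale, which divides by transcript length, Dusp15 led in uncrushed nerves at 123.7 ± 18.03 FPKM (SD, n = 3), followed by Spred1 at 15.4 ± 2.75 FPKM. Below them Dusp6 (6.05 FPKM), Etv5 (5.51), Spry2 (4.6), Etv4 (3.28) and Spry4 (2.85) each overlapped their neighbour over the 3 nerves, and Dusp5 was last at 0.827 FPKM, overlapping Dusp4 at 1.45 FPKM. At 3 dpc Spred1 led at 47.9 ± 3.37 FPKM (SD, n = 4). It was followed by Dusp6 at 17.3, Etv5 at 14.3, Dusp5 at 12.8 and Spry2 at 11.998 FPKM, which overlapped their neighbours, and Dusp15 was next to last at 3.27 FPKM, overlapping Spry1 at 2.76 FPKM. The order by TPM was the same in these 2 groups. Both scales were summed over the transcripts of a gene, so that short transcripts weigh more than in counts. In uncrushed nerves the non-coding Etv4-204 (672 bases) held 23.1% of the Etv4 counts. The place of Etv4 in this order therefore rests in part on short non-coding transcripts. TPM values themselves were not compared, because 1 transcript of 109 bases, n-R5s193, took 61.4% to 71.8% of all TPM in the crush libraries.

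The transcripts that make up Dusp15 shifted too. Of its 4 annotated transcripts, the protein-coding Dusp15-203 (2993 bases) held 75.7% ± 3.74 (SD, n = 3) of the expected counts in uncrushed and 76.9% ± 0.674 (SD, n = 4) in contralateral nerves but 49.6% ± 1.73 (SD, n = 4) at 3 dpc. The retained-intron transcript Dusp15-204 (3535 bases) held 10.1% ± 2.94 and 9.55% ± 0.547 in the controls and 25.0% ± 2.18 at 3 dpc, and the short coding transcript Dusp15-202 (753 bases) 4.34% ± 0.915 and 4.51% ± 1.24 against 16.0% ± 5.40. For these 3 transcripts no crushed nerve overlapped a control nerve. The shares at 3 dpc rest on 41 to 71 expected counts per nerve and were described without a test. In counts, Dusp15-204 also dropped, to between 10.3 and 16.6 expected counts per crushed nerve from between 155.7 and 315.7 per uncrushed nerve.

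**Figure D3:**
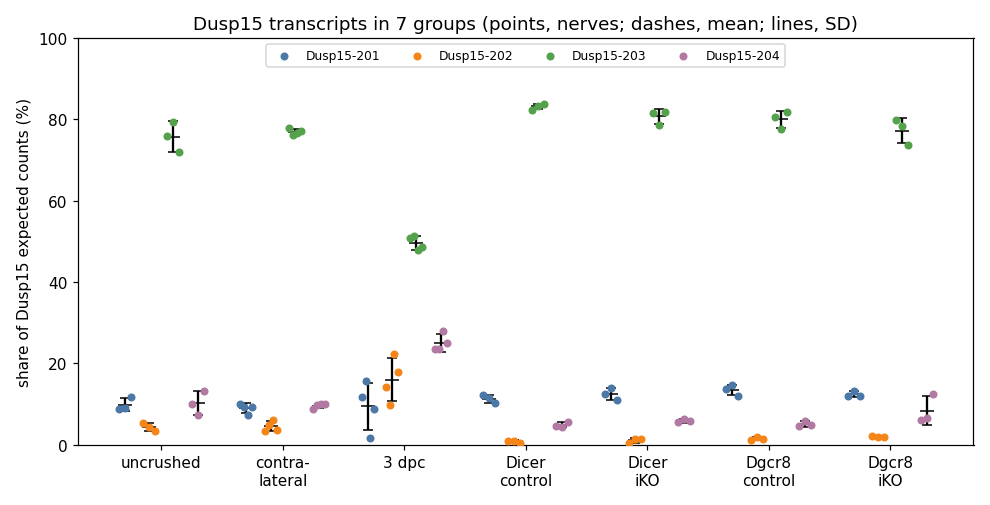
Share of each of the 4 Dusp15 transcripts in the expected counts of the gene (percent, linear axis from 0 to 100) in the 7 groups, with points for nerves, dashes for means and lines for the SD. Dusp15-203 lies at 71.9% or above in all control and mutant nerves and at 47.9% to 51.4% in the 4 crushed nerves.

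The other members offered less to compare. Dusp4, Dusp5, Dusp6, Spry2 and Spry4 are each listed with 1 transcript. Spred1-202, the shorter coding transcript of Spred1, held 17.6% ± 3.80 of its counts in uncrushed (SD, n = 3), 15.2% ± 1.37 in contralateral (n = 4) and 17.96% ± 3.14 in crushed nerves (n = 4), so that the groups overlapped. Etv4 is listed with 12 transcripts in the crush and 3 in the mutant libraries, and the additional ones in the crush list are non-coding processed transcripts. With transcripts of both lists only, Etv4 rose by 1.17 against uncrushed nerves (adjusted p = 0.00728), while Etv5 rose by 0.98 and was no longer called.

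Between contralateral and uncrushed nerves none of the 10 genes was called (0 called, against 0.0% higher and 0.0% lower of all 17722 genes in edgeR's quasi-likelihood test). Of all genes, 3165 had an unadjusted p under 0.05, and DESeq2 called 31 genes, all lower. The adjusted p of the members lay between 0.328 and 0.988. The lowest belonged to Dusp6, which was higher in each of the 4 contralateral nerves than in any uncrushed nerve, by a log2 fold change of 0.19 (SE 0.10).

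The rest of the pathway was followed through lists of genes. Among 18 other dual-specificity phosphatases and Ras-ERK inhibitors, 15 were tested, 3 were upregulated and 2 downregulated against uncrushed nerves (median log2 fold change -0.13). These are 20% and 13.3% of those tested, against 15.3% and 21.1% of all genes, so the list lay near the background. Dusp10, a phosphatase of the stress kinases p38 and JNK, had the highest value at 5.28, with 0.972 ± 0.0766 CPM in uncrushed (SD, n = 3) and 41.7 ± 4.56 CPM in crushed nerves (SD, n = 4), and Spred3 rose by 1.77. Dusp14 fell by 2.53 and Rasal2, a Ras GTPase-activating protein, by 1.82 on the log2 scale. Against contralateral nerves, 3 of 15 were upregulated and 3 downregulated (20% each, against 14.6% and 13.6% of all genes).

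None of the cascade genes passed the 2-fold limit upwards. Of 20 genes from Sos and Ras to ERK, all tested, 0 were upregulated at 3 dpc and 2 were downregulated against uncrushed nerves (3 against contralateral nerves), with median log2 fold changes of -0.11 and -0.34. The 2 are 10% and the 3 are 15% of those tested, against 21.1% and 13.6% of all genes called lower. Of all genes, 15.3% and 14.6% were called higher. With the adjusted p alone, 8 were higher and 7 lower against uncrushed nerves in edgeR's test, which is 40.0% and 35.0% against 33.8% and 33.4% of all genes and so near the background. Against contralateral nerves 35% were higher and 55% lower by the adjusted p alone, beside 33.5% and 32.9% of all genes. Mapk3, which encodes ERK1, fell by 1.49 on the log2 scale, with 250.5 ± 24.6 CPM in uncrushed (SD, n = 3) and 97.1 ± 8.72 CPM in crushed nerves (SD, n = 4).

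Of 16 other genes known to be induced by ERK, 10 went up and 2 went down by the call in the comparison with uncrushed nerves (median log2 fold change 1.57), and 11 and 2 in that with contralateral nerves (median 1.49). Against uncrushed nerves these are 62.5% and 12.5%, where 15.3% and 21.1% of all genes were called higher and lower. Against contralateral nerves they are 68.75% and 12.5%, where 14.6% and 13.6% of all genes were called. The highest against uncrushed nerves were Plaur (5.76), the AP-1 genes Fosl1 (5.502) and Fos (3.29), and Myc (2.90). Plaur was at 0.209 ± 0.112 CPM in uncrushed nerves (SD, n = 3), below the detection limit, so its fold change rests on values near 0 there. Of 17 other ETS factors, 7 were upregulated and 1 downregulated against uncrushed nerves, led by Spi1 (2.37), Elf4 (2.21), Ets1 (2.19) and Fli1 (2.11). Spi1 encodes PU.1, a factor of myeloid cells, and it rose together with the macrophage markers given above. Against contralateral nerves 6 of 16 tested were upregulated and 0 downregulated in edgeR's test, where 1 was lower by the adjusted p alone. The 6 are 37.5%, against 14.6% of all genes called higher.

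Of 23 receptor tyrosine kinases and ligands, 20 were tested against uncrushed nerves, of which 4 were upregulated and 5 downregulated (20% and 25%, against 15.3% and 21.1% of all genes, near the background). Against contralateral nerves, 4 of 19 were upregulated and 4 downregulated (21.1% each, against 14.6% and 13.6% of all genes). Btc, an EGF-family ligand, was at 0.402 ± 0.147 CPM in uncrushed nerves (SD, n = 3) and at 109.6 ± 11.4 CPM at 3 dpc (SD, n = 4), a log2 fold change of 7.90. Its level in uncrushed nerves was near the detection limit, so the size of this change is uncertain. Fgf5 (4.72, with 0.470 ± 0.123 CPM in uncrushed nerves, near the detection limit) and Met (3.32), the receptor of hepatocyte growth factor, rose, and Fgf1 fell by 4.23 on the log2 scale.

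The iKO nerves were read next, to ask whether the same genes change when miRNA biogenesis is lost in adult myelinating SCs without an injury. Nerves labelled Dicer iKO held Dicer1 at 81.0, 82.8 and 82.4 CPM, and those labelled as its controls at 88.0, 88.4 and 91.0 CPM (log2 -0.11, adjusted p = 0.357). Nerves labelled Dgcr8 iKO held Dgcr8 at 39.3, 53.7 and 41.7 CPM, and their controls at 38.2, 34.8 and 41.9 CPM (log2 0.22, adjusted p = 0.233). Gene sums include exons outside the floxed part and transcripts of cells without Cre, so they do not check the deletion.

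In Dgcr8 iKO, 4 of the 10 genes were upregulated (Dusp4, Dusp5, Dusp6 and Etv4) and Dusp15 was downregulated, while 13.4% of the 13252 genes tested were called higher and 6.99% lower. By the adjusted p alone, 9 were higher and 1 lower (23.9% and 20.6% of all genes). Over the 10, the median was 0.81 on the log2 scale, against -0.01 over all genes.

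Dusp5 again had the highest value. It was at 0.941, 0.670 and 0.831 CPM in the controls and 4.24, 2.75 and 6.41 CPM in Dgcr8 iKO, with a log2 fold change of 2.41 (SE 0.42, adjusted p = 0.000827). The groups did not overlap, but the controls held only 5 to 8 counts each and the mutants 29 to 55. Dusp4 was at 9.88, 8.71 and 10.9 CPM in the controls and 24.7, 18.7 and 30.2 CPM in Dgcr8 iKO (1.30, SE 0.20, adjusted p = 0.000345).

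Dusp6 was at 53.4, 47.7 and 72.7 CPM in the controls and 136.2, 121.1 and 140.9 CPM in Dgcr8 iKO (1.19, SE 0.16, adjusted p = 0.000149), again without overlap. Dusp15 was at 447.7, 497.5 and 461.2 CPM in the controls and 160.6, 201.0 and 130.6 CPM in Dgcr8 iKO (-1.52, SE 0.17, adjusted p = 5.09e-05). All mutant nerves lay below all controls, and Dusp15 was still the member with the most FPKM in Dgcr8 iKO, at 97.5 ± 22.3 (SD, n = 3).

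Spred1 was higher in every Dgcr8 iKO nerve, at 193.8, 174.3 and 187.5 CPM against 97.3, 101.5 and 121.3 CPM, but by less than 2-fold (0.79, SE 0.13, adjusted p = 0.000553). Spry1 was at 20.8, 16.3 and 18.3 CPM against 12.7, 10.7 and 11.3 CPM (0.67, SE 0.17, adjusted p = 0.0072). After crush Spry1 passed neither main test, with crushed nerve 1 below the other crushed nerves, and the 2 experiments were not compared by a test. Spry2 (0.48, SE 0.18, adjusted p = 0.0495) and Spry4 (0.37, SE 0.14, adjusted p = 0.0441) were barely past the p threshold, and the nerves of Spry2 overlapped, with 40.1, 30.3 and 35.9 CPM in Dgcr8 iKO and 26.2, 18.9 and 30.4 CPM in the controls.

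Of the ETS factors, Etv5 was at 38.7, 36.4 and 35.9 CPM in Dgcr8 iKO and 20.9, 23.7 and 17.5 CPM in the controls (0.84, SE 0.14, adjusted p = 0.000764). Etv4 was at 11.4, 10.1 and 19.7 CPM and 5.53, 8.58 and 4.67 CPM (1.13, SE 0.30, adjusted p = 0.0105). In both genes the groups did not overlap. The call of Etv4 was lost without Dgcr8 iKO nerve 3, at 0.79 (adjusted p = 0.0356), and without Dgcr8 control nerve 3, at 0.94 (adjusted p = 0.0528).

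In Dicer iKO, 1 gene was upregulated (Dusp5) and 1 downregulated (Dusp15), while 7.37% of the 13045 genes tested were called higher and 1.64% lower. By the adjusted p alone, 2 were higher, Dusp6 in addition, and 1 lower (12.3% and 8.88% of all genes). Dusp5 was at 1.72, 2.09 and 1.81 CPM in Dicer iKO and 0.718, 0.535 and 0.543 CPM in the controls, with a log2 fold change of 1.62 (SE 0.39, adjusted p = 0.026). These are 12 to 13 counts per mutant and 4 to 5 per control nerve. Dusp6 was at 107.5, 103.8 and 130.7 CPM against 85.0, 82.4 and 64.4 CPM (0.57, SE 0.14, adjusted p = 0.0283).

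Dusp15 was at 198.8, 148.6 and 166.8 CPM in Dicer iKO and 248.2, 347.6 and 512.0 CPM in the controls, a log2 fold change of -1.10 (SE 0.25, adjusted p = 0.0221). The groups did not overlap in any of these 3 genes, but the share of all genes without overlap was not counted. The calls of Dusp5 and Dusp15 did not hold with other libraries. Dusp5 had adjusted p values of 0.0528, 0.111, 0.0726, 0.0977 and 0.0907 without Dicer control nerve 1, 2 or 3 or Dicer iKO nerve 2 or 3. Dusp15 had adjusted p values of 0.0661, 0.101 and 0.101 without Dicer control nerve 2 or Dicer iKO nerve 2 or 3, and a log2 fold change of -0.79 without Dicer control nerve 3.

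The 7 remaining genes passed no test in Dicer iKO. Dusp4 was at 5.70, 9.74 and 9.47 CPM against 4.45, 4.68 and 7.47 CPM (0.58, adjusted p = 0.212), and Etv4, Etv5, Spred1 and Spry4 had log2 fold changes of 0.30, 0.13, 0.06 and 0.02. Spry1 (-0.48, adjusted p = 0.2) and Spry2 (-0.20, adjusted p = 0.606) were on the other side of 0.

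**Figure D4:**
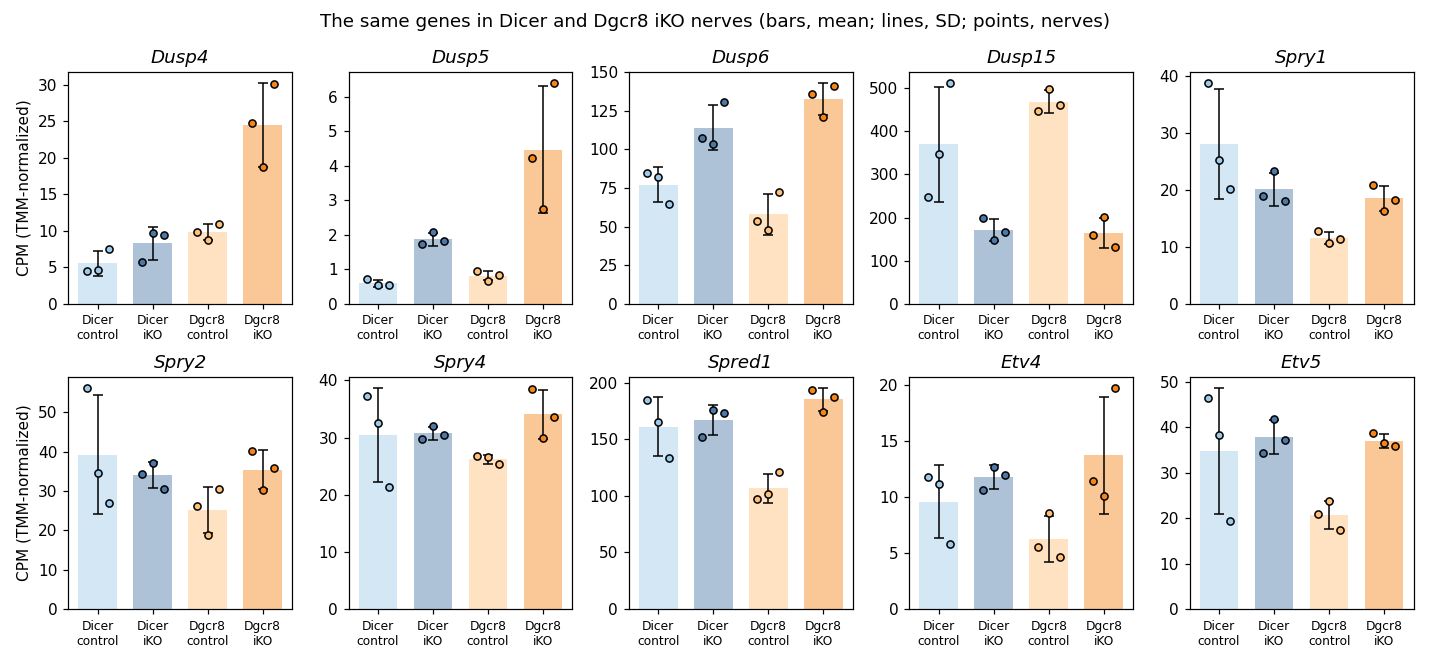
Level of each of the 10 genes in CPM (linear axes from 0) in Dicer controls, Dicer iKO, Dgcr8 controls and Dgcr8 iKO (n = 3 each), with bars for the mean, lines for the SD and 1 point per nerve. The points of the Dicer controls are spread widely, for Dusp15 from 248.2 to 512.0 CPM, while those of the Dgcr8 controls lie close together for Dusp15, at 447.7 to 497.5 CPM.

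The Dicer controls were spread widely in several members. Etv5 was at 46.5, 38.2 and 19.4 CPM in Dicer control nerves 1, 2 and 3, Spry1 at 38.8, 25.3 and 20.1 CPM, Spry2 at 56.1, 34.5 and 27.0 CPM, and Spry4 at 37.3, 32.6 and 21.3 CPM. Dusp15 had the reverse order. Marker sums in the same nerves were 28466, 37457 and 47923 CPM for myelinating SCs, 1028, 614.1 and 309.4 CPM for macrophages, 14147, 10898 and 5370 CPM for fibroblasts and 157.8, 132.7 and 77.0 CPM for repair SCs. The part of cell composition in these differences was not tested.

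The difference between the mutants, the Dgcr8 iKO effect minus the Dicer iKO effect, was tested as an interaction over the 12 libraries. None of the 10 genes passed (0 called, against 0.0148% of 13552 genes, in edgeR's test), whereas 1861 of all genes had an unadjusted p under 0.05. DESeq2 called 2 of the members, Spred1 (adjusted p = 0.0176) and Spry1 (adjusted p = 0.0388). The largest differences were those of Spry1, 1.15 (SE 0.30, adjusted p = 0.163), and Etv4, 0.83 (SE 0.45, adjusted p = 0.436), and the smallest adjusted p was that of Spred1 at 0.74 (SE 0.19, adjusted p = 0.155). Without Dicer control nerve 3, 3 members passed, Spry1 at 1.34 (adjusted p = 0.0187), Etv5 at 1 (adjusted p = 0.0223) and Spred1 at 0.86 (adjusted p = 0.0187), and the number of genes passing went from 2 to 401.

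Other cell types also moved in the mutants. Of the 8 macrophage markers, 6 were upregulated in Dgcr8 iKO and 5 in Dicer iKO, with sums of 2348 to 5675 CPM and 3662 to 6592 CPM against 308.4 to 361.2 CPM and 309.4 to 1028 CPM in their controls. All 4 markers of dividing cells were upregulated in both mutants, to 198.3 to 292.9 CPM in Dgcr8 iKO and 73.3 to 106.6 CPM in Dicer iKO. Fibroblast markers rose in 3 of 5 genes in Dgcr8 iKO and 2 of 5 in Dicer iKO. The neutrophil marker Csf3r was upregulated in both, by 3.18 in Dgcr8 iKO and 2.95 in Dicer iKO on the log2 scale. In Dgcr8 iKO the mast cell markers Cpa3 (2.19) and Mcpt4 (1.39) were upregulated as well. Of the 4 perineurial markers, Cldn1 was upregulated there (2.44), while 3 were lower by the adjusted p alone. Their sum was 576.2 to 773.7 CPM in Dgcr8 iKO and 836.6 to 1194 CPM in the controls. Of the myelinating SC markers, 4 of 7 were downregulated in Dgcr8 iKO and 0 of 7 in Dicer iKO in edgeR's test, where 1 was lower by the adjusted p alone. Of the 6 repair SC markers, 4 could be tested, and all 4 were upregulated in both mutants. The 6 summed to 372.0 to 470.7 CPM in Dgcr8 iKO and 88.6 to 92.6 CPM in its controls. In Dicer iKO they summed to 271.5 to 316.8 CPM, and in its controls to 77.0 to 157.8 CPM. Of the 5 endothelial markers, 1 was downregulated in Dgcr8 iKO and 0 in Dicer iKO in edgeR's test. By the adjusted p alone, 2 and 1 were lower. The part of these cells in the members' changes was not tested.

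In the same lists of pathway genes, Dgcr8 iKO had 3 of 16 other phosphatases and inhibitors upregulated (Dusp2 at 3.50, Dusp10 at 3.32 and Spred3 at 1.24) and 1 downregulated (Dusp14, by 1.77 on the log2 scale). Dusp2 was at 0.202 ± 0.0869 CPM in the controls (SD, n = 3), below the detection limit. In Dicer iKO, Dusp10 alone of 15 was called, at 2.31, and 0 were downregulated in edgeR's test, although 2 were lower by the adjusted p alone. Of the 20 cascade genes, 0 were upregulated in either mutant, while 2 were downregulated in Dgcr8 iKO, Ksr2 (-1.70) and Mapk3 (-1.11), and 0 in Dicer iKO. By the adjusted p alone, 3 were higher and 8 lower in Dgcr8 iKO (15% and 40%, against 23.9% and 20.6% of all genes). In Dicer iKO 1 was higher and 5 lower (5% and 25%, against 12.3% and 8.88% of all genes). For the calls in both lists, the shares of all genes were 13.4% higher and 6.99% lower in Dgcr8 iKO and 7.37% and 1.64% in Dicer iKO.

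Calls in the next lists stand against 13.4% higher and 6.99% lower of all genes in Dgcr8 iKO and 7.37% and 1.64% in Dicer iKO. Of the other ERK-induced genes, 5 of 15 were upregulated and 2 downregulated in Dgcr8 iKO and 3 and 0 in Dicer iKO, with medians of 0.16 and 0.43. Plaur (3.25 and 3.48), the cyclin gene Ccnd1 (2.89 and 1.88) and Myc (2.03 and 1.06) were called in both mutants, and Fosb fell by 2.35 on the log2 scale in Dgcr8 iKO. Of the other ETS factors, 4 of 16 were upregulated in Dgcr8 iKO (Spi1 at 2.69, Elk3 at 1.75, Ets1 at 1.60 and Elf4 at 1.33) and 2 in Dicer iKO (Fli1 at 1.08 and Elk3 at 1.01). Of the receptors and ligands, 4 of 19 were upregulated and 2 downregulated in Dgcr8 iKO, with Btc at 6.15 and its controls at 0.404 ± 0.301 CPM (SD, n = 3), and 2 and 1 in Dicer iKO, with Btc at 4.15. The level of Btc in the Dgcr8 controls was near the detection limit.

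The genes most like each member over the 11 crush libraries were sought among 10414 protein-coding genes by Pearson's r of log2(CPM + 1). They were Mbp for Dusp15 (r = 0.999), Akap6 for Dusp5 (0.9996), Adam9 for Spred1 (0.997), Ripk1 for Dusp6 (0.994), Hspa13 for Spry2 (0.991), Tubb2a for Dusp4 (0.991), Sfxn1 for Etv5 (0.989), Cd74 for Etv4 (0.970), Iigp1 for Spry4 (0.942) and Foxp2 for Spry1 (0.927). The 11 points share the split into crushed and control nerves, and no p is given.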

How the data were processed

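Whole-nerve total RNA was sequenced in 23 libraries. The authors trimmed reads with Trimmomatic, aligned them with STAR to GRCm38 and quantified transcripts with RSEM. Deposited expected counts per transcript were not normalized. TPM and FPKM were deposited by the authors too, scaled to transcript length and library size; they entered no test. The aligner's settings and the strand setting are not given in the sources used here. Per the labels the crush libraries came from a SMARTer pico-input kit and the iKO libraries from TruSeq with Ribo-Zero, whereas the methods name TruSeq for all.

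Expected counts were summed per gene, rounded and tested in R 4.3.3 with edgeR 4.0.16 (limma 3.58.1): filterByExpr (minimum count 10), TMM and glmQLFTest on the libraries of each pair of groups, with adjustment over all genes tested. The standard error is the log2 fold change over the square root of F. The interaction used 12 libraries and the adjusted p alone. Per the methods, the libraries of a group came from different mice. The contralateral nerves came from crushed mice, and the main test treated crushed and contralateral nerves as independent. No replicate pair was a copy: over 27 pairs, chi-square per degree of freedom was 4.36 to 42.4. Scripts were tested on simulated data. DESeq2 1.42.0 and the other alternatives are given in the closing section. Gene names and positions were taken from GENCODE M21 (GRCm38), which need not be the release the authors used.

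Members, lists and the rules for naming genes were chosen with earlier results of these data known: all 10 members; per list and comparison at most 4 called genes of largest change; per member the most similar gene with a mean CPM of at least 5. The uncrushed library titled 3 is described as 4, and the title was used. Some genes of the lists are not reported here by name.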

Additional observations from a re-analysis of the deposited data

Results flagged for a closer look

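In Spry1 and Spry2, all 3 Dicer iKO nerves were below the mean of their controls while all 3 Dgcr8 iKO nerves were above theirs. The log2 fold change of Spry1 was -0.48 in Dicer iKO and 0.67 in Dgcr8 iKO, and that of Spry2 was -0.20 and 0.48. The interaction test gave an adjusted p of 0.163 for Spry1 and 0.395 for Spry2, so neither difference passed, and single nerves of both Dicer groups overlapped. In none of the 20 sets of 4 crushed or contralateral nerves did the gap between an extreme nerve and its neighbour, divided by the range of the group, pass Dixon's 95% limit. The nearest was Spry1 in crushed nerves, where nerve 1 at 3.50 CPM gave a ratio of 0.827, just under that limit.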

How the results depend on the processing

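The values of single members were recomputed with RLE size factors, without a filter on counts, with at least 10 counts in every library, with a replicate block, with all groups of an experiment in one fit, with DESeq2, without each replicate in turn and, as an alternative chosen after seeing the data, with only transcripts listed in both experiments. Of these values 815 kept their direction and their side of the threshold, 22 were no longer past it, 15 came to pass it and 15 changed sign; where no value is given here, the cause was not tested. The number of members called in the crush comparisons stayed between 6 and 8 of 10 in the settings that keep all nerves, and that in Dgcr8 iKO between 4 and 5. Replicate numbers showed no clear pairing. The mean correlation of same-numbered nerves lay between -0.06 and 0.05 over the 5 comparisons, and in none was every pair above 0.1. Such weak values over few pairs cannot exclude that same-numbered crushed and contralateral nerves share a mouse. In that comparison the mean was 0.05 for same-numbered and -0.02 for other pairs. With the replicate block, 7 members were called there, the number of the main fit.

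In Dicer iKO, 2 members were called, but 1 without a filter, 1 with at least 10 counts in every library (where Dusp5 was not tested), 0 with the replicate block (Dusp5 adjusted p = 0.0887, Dusp15 adjusted p = 0.0751), 1 with DESeq2, and 0 to 2 when a replicate was left out. Of all genes, 1175 were called, 640 with the block and 572 to 1411 without a replicate. Signs in Dicer iKO turned with single controls left out: over all replicates left out, Spry2 ranged from -0.41 to 0.15, Spry4 from -0.18 to 0.19, Spred1 from -0.0648 to 0.17 and Etv5 from -0.16 to 0.40. For the interaction, 0 members passed, 2 with DESeq2 and 0 to 3 without a replicate, while the 2 genes of all became 1 with RLE, 20 without a filter, 0 with at least 10 counts, 0 with the block, 235 with DESeq2 and 0 to 401 without a replicate.

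Between contralateral and uncrushed nerves, 0 genes became 141 without a filter, 7 with the block, 1 with all groups in one fit, 31 with DESeq2, 1 with the shared transcripts and 0 to 95 without a replicate. There the log2 fold change of Spred1, -0.0039, was 0.012 with RLE, 0.0465 without a filter, 0.007 with the block, 0.0129 with DESeq2 and -0.0544 to 0.0927 without a replicate. Etv5 was 0.0273 without a filter and -0.093 to 0.0947 without a replicate. The median of all genes in crushed against uncrushed nerves went from -0.03 to -0.39 without a filter and -0.20 with all groups in one fit, and against contralateral nerves from -0.06 to -0.15 in the latter. Depth limits Dusp5 most, with 4 to 8 counts in each control of the iKO experiment.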
